A study of Mus musculus with 309 samples.

Results

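KPB25L-UV mammary tumours were set against KPB25L mammary tumours in mice that received a kinase inhibitor. The members were the 12 tumours titled with either model in the trametinib and erlotinib arms, out of 309 mouse mammary tumours of 24 models. They formed 4 groups of 3 tumours each: KPB25L-UV with trametinib, KPB25L with trametinib, KPB25L-UV with erlotinib, and KPB25L with erlotinib. The untreated tumours of the same models, 3 KPB25L-UV and 3 KPB25L, were used only as a separate reading of the model contrast, and chemotherapy tumours were left out. Poly(A) RNA of each frozen tumour was sequenced in bulk. The labels name the tumour model and the drug of each tumour, and they do not give dose, schedule, day of collection, host strain or age. They also give a median survival for each group, which was 45 days for KPB25L-UV and 36 days for KPB25L with trametinib, 40 days for KPB25L-UV and 31 days for KPB25L with erlotinib, and 35 days for KPB25L-UV and 21 days for KPB25L without treatment. These medians carry no error, and all tumours of a group share 1 value.

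KPB25L is known from published work as a transplantable mouse mammary tumour line deficient in p53 and Brca1, and KPB25L-UV as its derivative after ultraviolet irradiation, made to carry more mutations. The derivative is 1 line, so a difference between the models is a difference between a pair of lines and not an average over irradiated lines. Trametinib inhibits MEK, the kinase that activates ERK, and erlotinib inhibits the epidermal growth factor receptor, which lies upstream of the same cascade. Folding of secreted and membrane proteins takes place in the endoplasmic reticulum, where chaperones such as Hspa5, Hsp90b1 and Calr hold immature chains, and cytosolic heat shock proteins do the same work outside it. A bulk tumour also holds host macrophages, T cells, vessels and fibroblasts, and fewer cells of a type cannot be told apart from less RNA per cell. Trp53 and Brca1 were counted in all 12 tumours, and gene totals do not show whether single exons were deleted, so they give no check of either genotype.

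Sequencing depth went with the model in the inhibitor arms. The 6 KPB25L-UV libraries held 33.48 to 55.65 M counts (M, mega), and the 6 KPB25L libraries held 19.1 to 24.81 M. In the untreated arm the ranges were 18.86 to 21.42 M for KPB25L-UV and 19.45 to 22.27 M for KPB25L. Levels are given as CPM: each count was divided by its library's total, adjusted by trimmed means of M values, and put on a per-mega scale. Skeletal muscle genes set a few tumours apart: the mean log2 CPM over the 20 genes of that list was 9.03 in KPB25L-UV erlotinib replicate 3, 6.34 in KPB25L-UV erlotinib replicate 1 and 8.12 in KPB25L erlotinib replicate 3, and between -0.36 and 3.85 in the other 9. All 20 had higher values in KPB25L-UV in both arms (median log2 difference 1.62), with 0 unadjusted p-values under 0.05 in edgeR and 0 DESeq2 calls over both arms. In the trametinib arm the muscle level did not overlap, at 3.50, 2.48 and 3.80 in KPB25L-UV and -0.36, -0.21 and 1.94 in KPB25L, and in a fit of that arm alone 16 of the 20 had an unadjusted p under 0.05 and edgeR called Actn2 and Myh2 higher. The part of muscle in the trametinib results was not tested. KPB25L-UV erlotinib replicate 2 stood apart in another way. It held 319 genes more than 2-fold above, and 260 genes more than 2-fold below, every other inhibitor-treated tumour, while the next tumour in that order, KPB25L-UV trametinib replicate 1, held 99 and 120. Medians printed here that turn sign or move by over 1.5 times without KPB25L-UV erlotinib replicate 2 are given both ways where they occur.

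Over both arms, with treatment as a factor, no gene differed between KPB25L-UV and KPB25L at an adjusted p under 0.05 in edgeR's quasi-likelihood test with Benjamini-Hochberg adjustment (0 of 17177 tested genes, 0%, lowest adjusted p = 0.0963). At an unadjusted p under 0.05 there were 2867 genes, 16.7% of those tested, with 1465 higher in KPB25L-UV (8.53%) and 1402 lower (8.16%). Of all tested genes 53.6% had a log2 difference above 0 and 46.4% below 0. In both arms 33.3% were above 0 and 28% below. List counts given further on are to be read beside these shares. DESeq2 on the same counts called 740 genes (4.31%), 345 higher (2.01%) and 395 lower (2.3%). A limma test on the authors' own scaled table called 60 genes, 57 higher and 3 lower, and DESeq2 called all 60 as well. That scaling put the median log2 difference of all genes at 0.11, against 0.03 in the edgeR fit, and moved the unadjusted split to 2890 higher and 857 lower. In 90 genes every KPB25L-UV tumour lay above every KPB25L tumour (0.524%), and in 142 every KPB25L-UV tumour lay below (0.827%). The p-values measure the spread between these tumours, and the labels do not say more of how the tumours of a group were obtained than that they were individual.

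The 24 genes with the smallest p and a mean log2 CPM of at least 2, chosen after their values were seen, held 14 genes with higher values in KPB25L-UV and 10 with lower ones. All 24 had the same adjusted p of 0.0963 in edgeR, DESeq2 called all 24, and in 20 the 6 KPB25L-UV tumours did not overlap the 6 KPB25L tumours. The differences were small: 21 of the 24 were under 2-fold, and their sizes on the log2 scale lay between 0.38 and 1.46. Besides the genes described in the next paragraphs they held Mdc1, an adaptor of the DNA damage response (log2 difference 0.59 ± 0.10, SE), Mtrr, which reactivates methionine synthase (0.59 ± 0.09), Cdk12, a kinase of transcription elongation (0.42 ± 0.08), Gna12, a G protein subunit (-0.45 ± 0.07), and Ap2s1, an endocytic adaptor subunit (-0.51 ± 0.09). Slc6a17, Zbtb38, Cmtm4, Mns1 and Nsrp1 had higher values by 0.43 to 1.17, and Mpp1, Vps26c, Rps27 and mt-Rnr2 differed by -0.38 to -0.65. The ribosomal gene Rps27 and the mitochondrial ribosomal RNA mt-Rnr2 have near-identical copies in the genome that can share reads, so their values are uncertain. Gcnt2, a glycosyltransferase that branches poly-N-acetyllactosamine chains, had 87.4, 73.2 and 58.5 CPM in KPB25L-UV with trametinib, against 50.9, 37.6 and 44.6 CPM in KPB25L with trametinib. With erlotinib it had 74.5, 83.2 and 64.6 CPM in KPB25L-UV, against 47.9, 43.9 and 37.6 CPM in KPB25L, so all 6 values of one model lay above all 6 of the other.

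**Figure D1:**
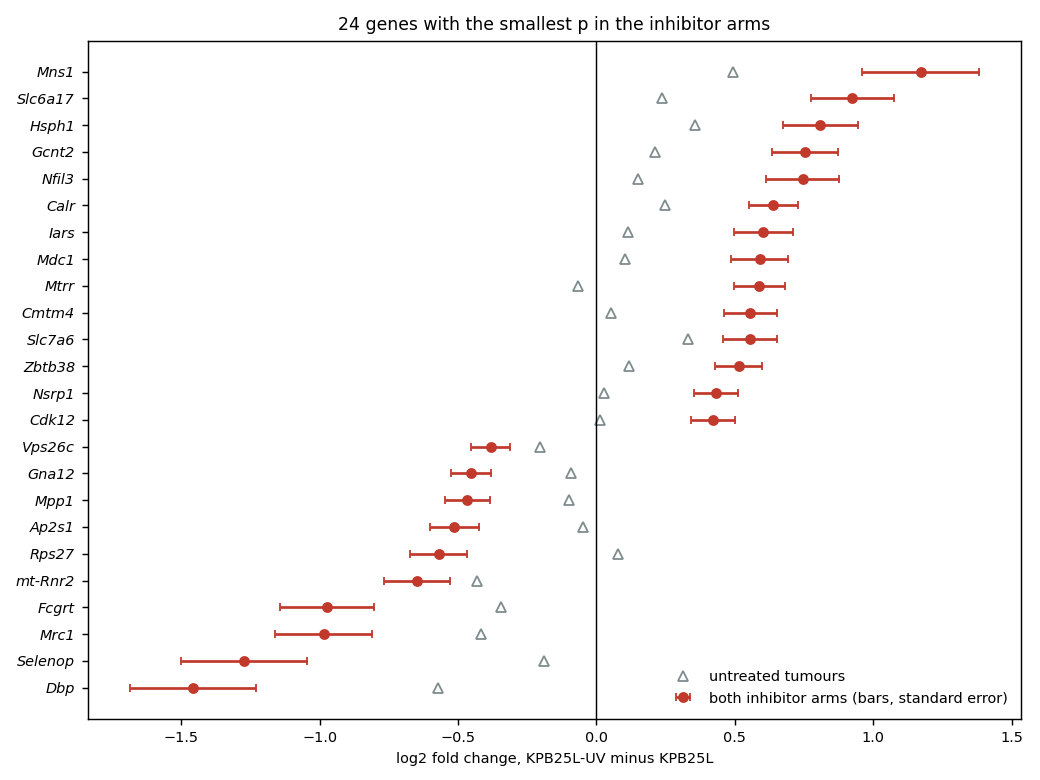
Log2 difference, KPB25L-UV minus KPB25L, for the 24 genes of smallest p. Values over both inhibitor arms (6 against 6 tumours) are drawn with their SE, and those in untreated tumours (3 against 3) without it. In the inhibitor arms 14 genes lie above 0 and 10 below, and 22 of the 24 have the same sign in untreated tumours, where 0 have an unadjusted p under 0.05.

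Calr headed the list by p. It encodes calreticulin, a lectin chaperone of the endoplasmic reticulum that also serves in the loading of MHC class I. Its level was 2020, 1870 and 2170 CPM in KPB25L-UV with trametinib, against 1200, 1280 and 1140 CPM in KPB25L with trametinib. With erlotinib it was 1870, 1590 and 1710 CPM in KPB25L-UV, against 1280, 1240 and 1070 CPM in KPB25L. The models did not overlap in either arm, and the log2 difference was 0.64 ± 0.09 (SE) over both arms, 0.74 with trametinib and 0.54 with erlotinib (edgeR adjusted p = 0.0963; DESeq2 adjusted p = 2.42e-11). Without KPB25L-UV erlotinib replicate 2 edgeR called 5 genes (0.029%), and Calr was 1 of them, higher by 0.68 ± 0.09 with an adjusted p of 0.0272. In untreated tumours it stood at 1660, 1420 and 1540 CPM in KPB25L-UV and 1180, 1240 and 1420 CPM in KPB25L, a log2 difference of 0.25 in which the groups touched (1420 CPM in both).

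A list of 18 chaperones and folding enzymes of the endoplasmic reticulum, drawn up after Calr was seen, had 15 members with a log2 difference above 0, where 53.6% of all tested genes had one. Unadjusted p-values were under 0.05 for 10 members on the higher side and 1 on the lower, none was called by edgeR, and DESeq2 called 6 higher and 1 lower. Their median log2 difference was 0.27, beside 0.03 over all tested genes and 0.05 for the same list in untreated tumours. Hspa5, the main Hsp70-type chaperone of this compartment, had 731, 761 and 831 CPM in KPB25L-UV with trametinib, against 549, 598 and 531 CPM in KPB25L with trametinib. With erlotinib the values were 915, 718 and 955 CPM in KPB25L-UV and 699, 708 and 661 CPM in KPB25L, a separation without overlap at a log2 difference of 0.40 ± 0.09 (DESeq2 adjusted p = 0.000894). Hsp90b1, the Hsp90-type chaperone of this compartment, separated the models as well, with 956 to 1130 CPM in the 6 KPB25L-UV tumours and 714 to 910 CPM in the 6 KPB25L tumours (0.38 ± 0.08). The chaperone Hyou1 had a log2 difference of 0.47 ± 0.11 with overlap. Sec61b, a subunit of the translocation channel, was the member that DESeq2 called lower (-0.48 ± 0.11). Calr itself, placed in a list for MHC class I and peptide loading too, was the member of that list with the smallest p; the list's median was -0.11, and -0.01 without KPB25L-UV erlotinib replicate 2.

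Many genes of this group are known to carry the ER stress response element, bound by ATF6 together with NF-Y, and promoter windows of the 3 genes just described are shown because that element is visible in them. The element was searched on both strands as CCAAT, 9 bases of any kind and CCACG, in the 250 bases before each gene start in RefSeq on GRCm38.p6. It was found in 37 of 32851 windows (0.113%), and in 7 of the 16 listed members that had a window: Calr, Canx, Creld2, Dnajc3, Hsp90b1, Hspa5 and Pdia6. The list holds genes of the kind known to carry the element, so that share is no result of these tumours. Among the 24 genes of smallest p it was found in 1 of 23 windows, that of Calr, and in the list of heat shock genes described next in 0 of 15. Capitals mark the outer letters of the element, which read CCAAT and CCACG on the strand shown, or CGTGG and ATTGG where it lies on the other strand. These windows are chr8:84846932-84847181 on the minus strand for Calr, chr2:34771840-34772089 on the plus strand for Hspa5 and chr10:86705445-86705694 on the minus strand for Hsp90b1, each 250 bases, given 5′ to 3′ in the direction of transcription. A match describes these letters and does not show that a factor was bound.
Calr promoter window: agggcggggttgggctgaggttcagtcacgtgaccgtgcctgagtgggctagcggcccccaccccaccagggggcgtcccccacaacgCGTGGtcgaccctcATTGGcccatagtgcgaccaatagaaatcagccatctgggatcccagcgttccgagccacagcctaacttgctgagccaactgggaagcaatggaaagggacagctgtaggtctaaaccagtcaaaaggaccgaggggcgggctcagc
Hspa5 promoter window: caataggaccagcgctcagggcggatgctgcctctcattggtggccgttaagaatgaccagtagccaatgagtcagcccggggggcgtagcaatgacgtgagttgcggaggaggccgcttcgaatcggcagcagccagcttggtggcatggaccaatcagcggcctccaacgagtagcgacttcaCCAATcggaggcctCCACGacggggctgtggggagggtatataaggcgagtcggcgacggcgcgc
Hsp90b1 promoter window: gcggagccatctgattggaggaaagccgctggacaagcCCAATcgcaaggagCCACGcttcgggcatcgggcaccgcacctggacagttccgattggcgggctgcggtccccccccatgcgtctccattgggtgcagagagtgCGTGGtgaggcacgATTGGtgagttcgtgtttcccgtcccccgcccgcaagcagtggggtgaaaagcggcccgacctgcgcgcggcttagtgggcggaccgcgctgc

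Heat shock genes outside the endoplasmic reticulum pointed the same way. Their list was drawn up after the values were seen. Most members are cytosolic, and Hspd1 and Hspe1 are mitochondrial chaperonins. All 18 members had a log2 difference above 0, 15 of them within each arm (33.3% of all tested genes were above 0 in both arms). Unadjusted p-values were under 0.05 for 10 members, edgeR called none and DESeq2 called 6; the median was 0.33, and it was 0.00 in untreated tumours. Hsph1, an Hsp110-type chaperone, had 190, 202 and 170 CPM in KPB25L-UV with trametinib, against 115, 151 and 94.1 CPM in KPB25L with trametinib. In the erlotinib arm the values were 350, 368 and 385 CPM in KPB25L-UV and 219, 196 and 148 CPM in KPB25L. Within each arm the models did not overlap, and across arms they did, since KPB25L with erlotinib reached the level of KPB25L-UV with trametinib; the log2 difference was 0.81 ± 0.13 (DESeq2 adjusted p = 1.38e-05). Hsp90aa1 (0.54 ± 0.12) and Hspa4l (0.68 ± 0.15) were also among the 6 that DESeq2 called higher. For the drug term, trametinib minus erlotinib, the same list had a median of -0.39, with 15 members at an unadjusted p under 0.05 on the lower side (7.1% of all tested genes).

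Genes of protein supply stood beside the chaperones. Slc7a6, an amino acid transporter of the plasma membrane, had 82.7, 91.1 and 92.2 CPM in KPB25L-UV with trametinib, against 49.4, 53.4 and 51.6 CPM in KPB25L with trametinib, and edgeR called this rise within the arm (log2 difference 0.78 ± 0.10, adjusted p = 0.0444). With erlotinib it had 80.9, 94.2 and 76.7 CPM in KPB25L-UV and 70.4, 68.3 and 63 CPM in KPB25L, so the models were apart in this arm too, by 0.33. Iars, the isoleucyl-tRNA synthetase, had 88.2 to 129 CPM in the 6 KPB25L-UV tumours and 60.4 to 93.1 CPM in the 6 KPB25L tumours (0.60 ± 0.11). Of 19 tested aminoacyl-tRNA synthetases, a list also drawn up afterwards, 18 were above 0, 5 had an unadjusted p under 0.05 and DESeq2 called 3. Their median was 0.18, and 0.12 in untreated tumours. In the list for unfolded protein and amino acid stress, 6 of 18 members had an unadjusted p under 0.05 on the higher side, with a median of 0.22; its smallest p-values belonged to Hsp90b1, Hspa5 and the folding cofactor Sdf2l1 (0.37).

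**Figure D2:**
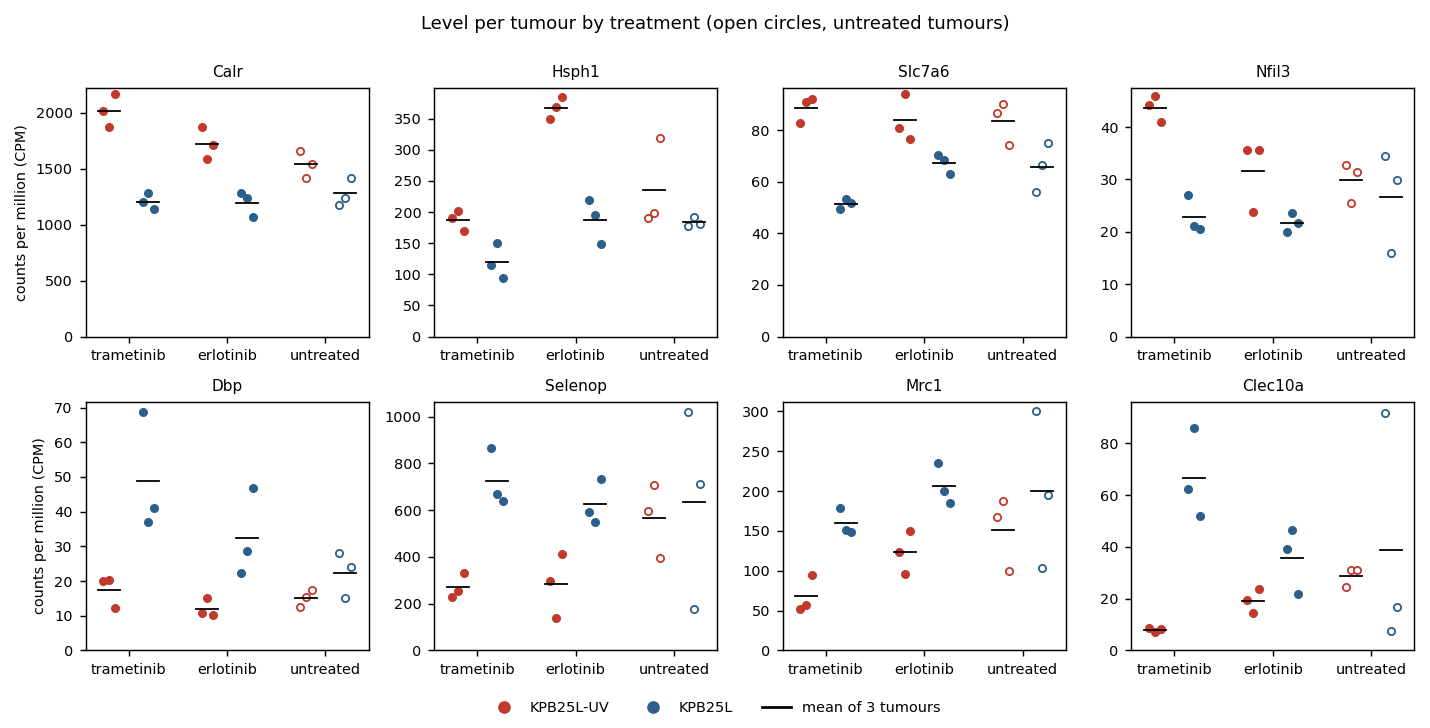
CPM of Calr, Hsph1, Slc7a6, Nfil3, Dbp, Selenop, Mrc1 and Clec10a in each tumour, by model and treatment, with 3 tumours in each of the 6 groups. The first 4 genes lie higher and the other 4 lower in KPB25L-UV than in KPB25L within each inhibitor arm, with partial overlap for Clec10a with erlotinib and Nfil3 with erlotinib touching nearly (23.8 against 23.6 CPM); untreated tumours overlap more.

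Genes of the circadian clock were split by direction. Dbp, a transcription factor whose own level follows the clock closely, had 20, 20.4 and 12.2 CPM in KPB25L-UV with trametinib, against 68.8, 37 and 41 CPM in KPB25L with trametinib. In the erlotinib arm Dbp had 10.8, 15 and 10.2 CPM in KPB25L-UV, against 22.2, 28.6 and 46.8 CPM in KPB25L. No KPB25L-UV value reached a KPB25L value, and the log2 difference of -1.46 ± 0.23 was the largest of the 24 (DESeq2 adjusted p = 2.38e-06). Nfil3, a repressor that acts on the same sites as Dbp, was opposite: 44.2, 46 and 41 CPM in KPB25L-UV with trametinib, against 27.1, 21.1 and 20.5 CPM in KPB25L with trametinib. Its erlotinib values were 35.6, 23.8 and 35.7 CPM in KPB25L-UV and 20, 23.6 and 21.6 CPM in KPB25L (0.75 ± 0.13 over both arms). Without KPB25L-UV erlotinib replicate 2, which held the 23.8 CPM, edgeR called Nfil3 higher at 0.84 ± 0.10 (adjusted p = 0.0227).

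The activator Arntl went with Nfil3, at 18.5 to 23.2 CPM in the 6 KPB25L-UV tumours and 13.2 to 16.5 CPM in the 6 KPB25L tumours (0.49 ± 0.09). Nr1d2, a repressor of Arntl (-0.52 ± 0.13), and Tef, a relative of Dbp (-0.51 ± 0.14), went with Dbp. Over the 19 genes of a clock list drawn up afterwards, 3 had an unadjusted p under 0.05 on the higher side and 4 on the lower, DESeq2 called 2 higher and 3 lower, and the median was 0.03, or -0.01 without KPB25L-UV erlotinib replicate 2. In untreated tumours the log2 differences were -0.57 for Dbp, 0.15 for Nfil3 and 0.40 for Arntl, none with a p under 0.05 in edgeR. The hour of collection is not in the labels, so its part in these values was not tested.

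Genes of resident-type macrophages had lower values in KPB25L-UV, mostly with trametinib. Of a list of 20 genes of resident-type tissue macrophages, drawn up after the values were seen, 19 had a log2 difference below 0 (46.4% of all tested genes), 12 of them in both arms (28% of all tested genes). Unadjusted p-values were under 0.05 for 13, edgeR called none over both arms and DESeq2 called 8; the median was -1.0, with -1.55 in the trametinib arm, -0.32 in the erlotinib arm and -0.47 in untreated tumours. Selenop, a secreted selenium carrier that macrophages of this type express, had 228, 255 and 331 CPM in KPB25L-UV with trametinib, against 867, 668 and 637 CPM in KPB25L with trametinib. With erlotinib the values were 296, 139 and 414 CPM in KPB25L-UV and 593, 547 and 734 CPM in KPB25L, with no overlap (-1.27 ± 0.23, DESeq2 adjusted p = 3.68e-05). Mrc1, the mannose receptor CD206, had 51.7, 57.1 and 95.1 CPM in KPB25L-UV with trametinib, against 179, 151 and 149 CPM in KPB25L with trametinib. In the erlotinib arm it had 124, 95.7 and 150 CPM in KPB25L-UV, against 235, 200 and 185 CPM in KPB25L, again apart within the arm (-0.99 ± 0.18 over both arms). Fcgrt, the neonatal Fc receptor, had 46.5 to 81.9 CPM in the 6 KPB25L-UV tumours and 102 to 167 CPM in the 6 KPB25L tumours (-0.97 ± 0.17).

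Clec10a, a C-type lectin of macrophages and dendritic cells, differed most in the trametinib arm. It fell to 8.61, 7.06 and 8.39 CPM in KPB25L-UV with trametinib, against 62.5, 85.8 and 51.8 CPM in KPB25L with trametinib, a log2 difference of -3.06 ± 0.30 that edgeR called within the arm (adjusted p = 0.0065). With erlotinib the groups overlapped, at 19.3, 14.6 and 23.8 CPM in KPB25L-UV and 39, 46.4 and 21.8 CPM in KPB25L (-0.88). The lectin Cd209a was called in the trametinib arm too, with 0.783, 0.555 and 0.366 CPM in KPB25L-UV and 3.3, 3.11 and 3.06 CPM in KPB25L (-2.48 ± 0.35, adjusted p = 0.0451), while the erlotinib values were 3.5, 4.1 and 4.49 CPM in KPB25L-UV and 2.32, 4.63 and 3.49 CPM in KPB25L. Whether either difference is itself unequal between the arms was tested by the interaction, which did not call them. The broader macrophage list, 20 tested genes, had 16 below 0, 8 with an unadjusted p under 0.05 on the lower side, of which DESeq2 called Mrc1, and a median of -0.43, which was -0.23 without KPB25L-UV erlotinib replicate 2. Its arms ran the other way from those of the resident-type list, with medians of -0.12 with trametinib and -0.70 with erlotinib (-0.49 without that tumour), and 7 of 20 members were below 0 in both arms. Its complement member C1qc had a log2 difference of -0.40 with trametinib and -1.12 with erlotinib.

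T cell genes had lower values in KPB25L-UV in all 19 tested members of their list, 15 of them in both arms. Unadjusted p-values were under 0.05 for 12 members, where 8.16% of all tested genes lay on that side, and DESeq2 called 9 lower; edgeR called none. The median log2 difference was -0.96, with -1.32 in the trametinib arm and -0.87 in the erlotinib arm, and without KPB25L-UV erlotinib replicate 2 it was -1.01. In untreated tumours the same list had a median of 0.50, on the other side of 0, and the change of sign between arms was not tested. Mean log2 CPM over the list was 0.45, 0.50 and 1.66 in untreated KPB25L-UV, against 0.74, -0.13 and 0.68 in untreated KPB25L. The lowest belonged to KPB25L replicate 2 and the highest to KPB25L-UV replicate 3, and no untreated median was taken without them. Levels were low, which limits each gene. Trac, the constant region of the T cell receptor alpha chain, had 1.93, 1.94 and 1.99 CPM in KPB25L-UV with trametinib, against 4.37, 2.62 and 3.14 CPM in KPB25L with trametinib. Its erlotinib values were 1.79, 1.45 and 1.19 CPM in KPB25L-UV and 2.37, 3.68 and 2.31 CPM in KPB25L, without overlap between the models (-0.85 ± 0.20, DESeq2 adjusted p = 0.00475). Trbc1, a beta chain constant region, also separated the models (-1.72 ± 0.44), and Zap70, the kinase of the receptor, had the smallest p of the list (-1.35 ± 0.29). Trbc1 and Trbc2 are near-identical, so their single values are uncertain. Cd8a did not follow: its log2 difference was -0.04 ± 0.46, and 0.18 without KPB25L-UV erlotinib replicate 2.

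Other immune groups were read in the same way. The 12 genes of MHC class II, which presents antigen to CD4+ T cells, were below 0 in both arms without exception, with a median of -0.69, 8 unadjusted p-values under 0.05 and 1 DESeq2 call, H2-Eb1 (-1.11 ± 0.34). The invariant chain Cd74 had 450, 1180 and 1600 CPM in KPB25L-UV with trametinib, against 2110, 2330 and 1320 CPM in KPB25L with trametinib. Under erlotinib Cd74 had 1930, 916 and 834 CPM in KPB25L-UV and 2100, 2490 and 1690 CPM in KPB25L, so the models overlapped in both arms. Of 13 dendritic cell genes, 12 were below 0, 6 had an unadjusted p under 0.05 and DESeq2 called 4, with a median of -0.65; Xcr1, a receptor of the conventional type that cross-presents antigen, had -1.78 ± 0.47. Of 12 tested B cell and plasma cell genes, 11 were below 0 with a median of -0.93, and Ighm, the IgM heavy chain, had 2.06 to 15.5 CPM in the 6 KPB25L-UV tumours and 19.1 to 36.2 CPM in the 6 KPB25L tumours. Of 15 tested cytotoxic and NK cell genes, 14 were below 0, 4 with an unadjusted p under 0.05, with a median of -0.66. Of 11 tested genes of regulatory T cells and checkpoint receptors, 8 were below 0 and 3 above, with a median of -0.68. That list's member of smallest p, Tigit, went the other way (2.43, unadjusted p = 0.00431 in edgeR). DESeq2 called 1 member of that list higher and 0 lower. In untreated tumours the medians were 0.58 for the B cell list, 0.74 for the cytotoxic list and -0.31 for MHC class II. Untreated KPB25L replicate 2 had the lowest mean log2 CPM of the untreated tumours in the B cell list (-0.60) and the cytotoxic list (-1.06).

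A list of neutrophil genes and of chemokines that attract neutrophils had mostly higher values in KPB25L-UV. Of 14 tested genes 12 were above 0 (53.6% of all tested genes), 8 with an unadjusted p under 0.05 (8.53%), and DESeq2 called 3. The median was 1.08, with 0.78 in the trametinib arm, 1.32 in the erlotinib arm and 0.24 in untreated tumours. S100a8, a calcium-binding protein that neutrophils hold in quantity, had 5.84, 6.16 and 3.35 CPM in KPB25L-UV with trametinib, against 1.28, 0.346 and 1.32 CPM in KPB25L with trametinib. In the erlotinib arm S100a8 had 6.57, 3 and 3.57 CPM in KPB25L-UV, against 1.5, 1.15 and 0.546 CPM in KPB25L. The models did not overlap, and the log2 difference was 2.21 ± 0.38 (edgeR adjusted p = 0.0963; DESeq2 adjusted p = 3.53e-06). Its partner S100a9 separated them as well (2.09 ± 0.41), and Cxcr2, the chemokine receptor that draws neutrophils into tissue, had 1.82 ± 0.52 with overlap. The other members with an unadjusted p under 0.05 were the receptor Csf3r (0.76 ± 0.33) and 4 chemokines that are not made by neutrophils alone, Cxcl1 (1.04 ± 0.35), Cxcl2 (1.11 ± 0.49), Cxcl3 (1.51 ± 0.65) and Cxcl5 (1.19 ± 0.45). The granule genes Mmp9 (0.00 ± 0.43), Ltf (0.04 ± 0.79) and Lcn2 (0.98 ± 0.80) were not called by either tool.

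**Figure D3:**
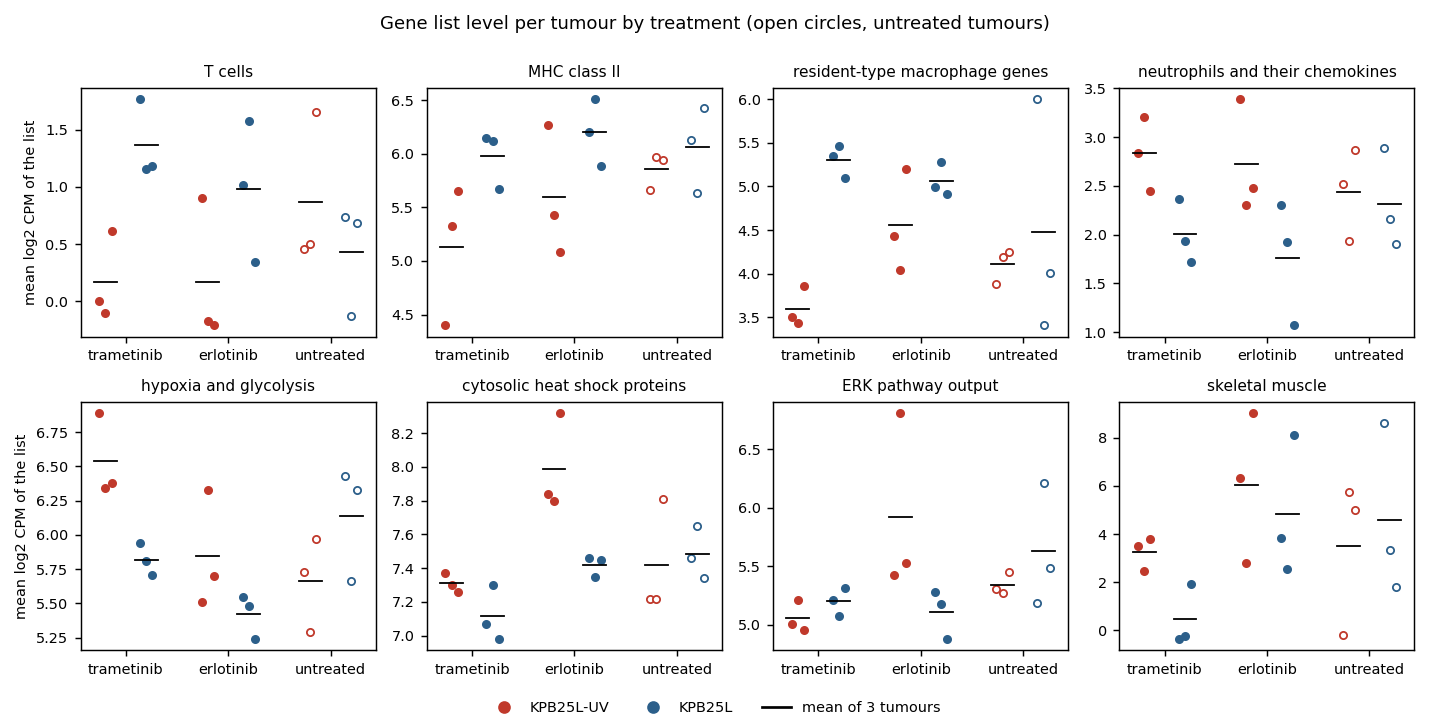
Mean log2 CPM over the members of 8 gene lists in each tumour, by model and treatment, 3 tumours in each of the 6 groups. T cell, MHC class II and resident-type macrophage levels lie lower in KPB25L-UV trametinib tumours than in KPB25L trametinib tumours, and the muscle level ranges from -0.36 to 9.03 over the 12 inhibitor-treated tumours.

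The log2 differences of hypoxia and glycolysis genes were above 0 in all 20 members (53.6% of all tested genes), 17 of them in both arms (33.3%). The list had 11 unadjusted p-values under 0.05, 6 DESeq2 calls on the higher side, no edgeR call, and a median of 0.57; without KPB25L-UV erlotinib replicate 2 the median was 0.45. By arm it was 0.72 with trametinib and 0.47 with erlotinib, where it was 0.15 without that tumour. Untreated tumours had a median of -0.45. Hk2, the hexokinase that opens glycolysis, had 88.6, 50.9 and 61.6 CPM in KPB25L-UV with trametinib, against 31.3, 40.1 and 34.6 CPM in KPB25L with trametinib. The erlotinib values of Hk2 were 43.9, 91.9 and 74.1 CPM in KPB25L-UV and 45.8, 37.6 and 42.9 CPM in KPB25L, with overlap at the lower end (0.83 ± 0.18). Egln3, an oxygen-sensing hydroxylase that hypoxia induces, had 1.35 ± 0.30, and the collagen hydroxylase subunit P4ha1 had 0.50 ± 0.13. Slc2a1, the glucose carrier GLUT1, had 291, 209 and 129 CPM in KPB25L-UV with trametinib and 79.3, 99.8 and 74.1 CPM in KPB25L with trametinib. Its erlotinib values of 65.5, 206 and 69.5 CPM in KPB25L-UV overlapped those of 97.6, 59.7 and 38 CPM in KPB25L.

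Vessel genes had lower values in KPB25L-UV, mostly with trametinib. Of 20 endothelial genes 17 were below 0 (46.4% of all tested genes), 7 with an unadjusted p under 0.05 (8.16%). The median was -0.36, with -0.68 in the trametinib arm, -0.03 in the erlotinib arm and -0.42 in untreated tumours. Without KPB25L-UV erlotinib replicate 2 the erlotinib median was 0.19. Vwf, the von Willebrand factor, had 5.12, 6.19 and 7 CPM in KPB25L-UV with trametinib, against 23.2, 25.5 and 13.8 CPM in KPB25L with trametinib. With erlotinib the groups overlapped, at 17.7, 9.55 and 18.4 CPM in KPB25L-UV and 10.8, 22.1 and 22.4 CPM in KPB25L. Apln, an endothelial tip cell ligand that hypoxia induces, was the member that DESeq2 called higher (0.91 ± 0.24). Of 23 fibroblast and matrix genes 18 were below 0 with a median of -0.22, which was -0.07 without KPB25L-UV erlotinib replicate 2 and -0.94 in untreated tumours. Acta2, the smooth muscle actin, had 108 to 256 CPM in the 6 KPB25L-UV tumours and 212 to 541 CPM in the 6 KPB25L tumours (-1.13 ± 0.27). In untreated tumours its log2 difference was -1.89 (DESeq2 adjusted p = 0.0121; edgeR adjusted p = 0.744).

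Genes of the cell cycle had slightly higher values in KPB25L-UV. Of 35 proliferation genes 34 were above 0 (53.6% of all tested genes), 25 in both arms (33.3%). Unadjusted p-values were under 0.05 for 12 (8.53%), none was called by edgeR or DESeq2, and the median was 0.30. Mki67, the proliferation antigen, had 285, 188 and 245 CPM in KPB25L-UV with trametinib, against 127, 117 and 171 CPM in KPB25L with trametinib. With erlotinib it overlapped, at 252, 217 and 294 CPM in KPB25L-UV and 264, 221 and 174 CPM in KPB25L (0.50 ± 0.17 over both arms, edgeR adjusted p = 0.195). Of 24 genes of homologous recombination and mismatch repair 22 were above 0, 9 with an unadjusted p under 0.05 and none called by either tool, with a median of 0.28. Nucleotide excision repair, the pathway that removes ultraviolet photoproducts, had a median of 0.08 over 28 genes. Unadjusted p-values were under 0.05 for 3 on the higher side (8.53% of all tested genes) and 1 on the lower (8.16%), near those shares.

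**Figure D4:**
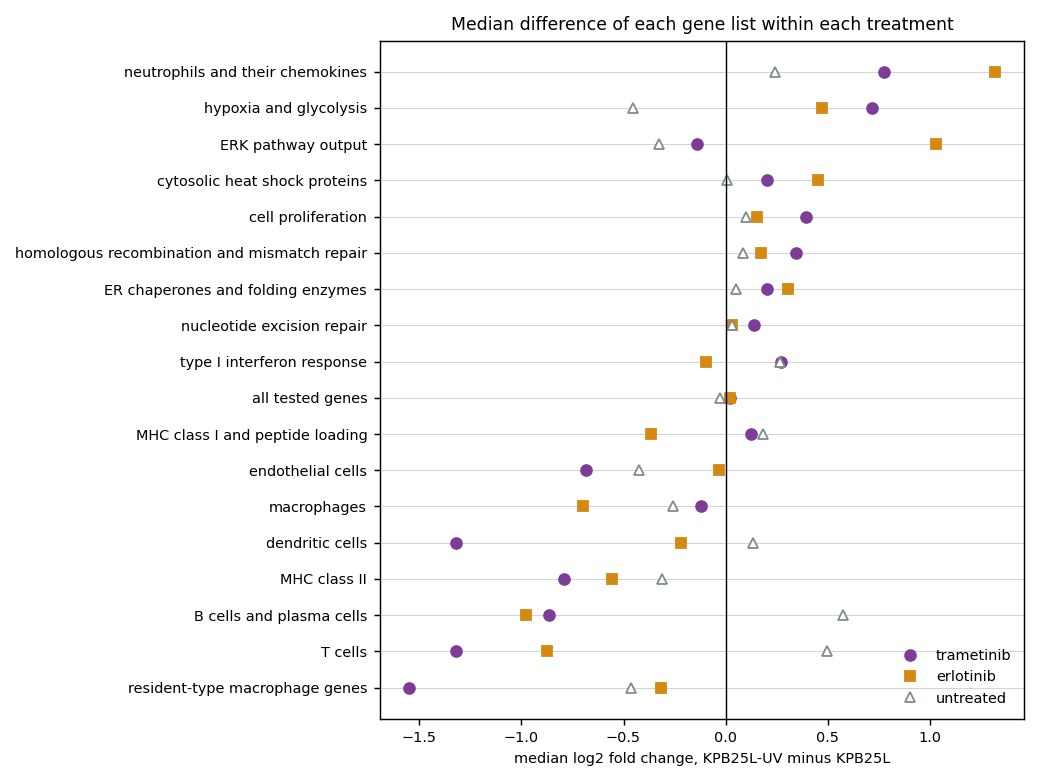
Median log2 difference, KPB25L-UV minus KPB25L, over the tested members of 18 gene lists in the trametinib arm, the erlotinib arm and untreated tumours. The T cell list has -1.32, -0.87 and 0.50 and the hypoxia list 0.72, 0.47 and -0.45, so both lie on the other side of 0 in untreated tumours. Without KPB25L-UV erlotinib replicate 2 the erlotinib value of the hypoxia list is 0.15. Untreated KPB25L replicate 2 had the lowest T cell level among untreated tumours (mean log2 CPM -0.13).

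Targets of the inhibited cascade showed how far a single tumour carried a median. The list of ERK output genes had a median of 0.44 over both arms, with -0.14 in the trametinib arm and 1.03 in the erlotinib arm, and it was 0.11 over both arms and 0.41 with erlotinib once KPB25L-UV erlotinib replicate 2 was left out. Of its 22 members 20 were above 0 (53.6% of all tested genes), 7 of them in both arms (33.3%). Fosl1, an AP-1 member, had the smallest p and the only DESeq2 call (1.05 ± 0.27, DESeq2 adjusted p = 0.00959). Fosl1 had 61.7, 35.4 and 35.8 CPM in KPB25L-UV with trametinib, against 23.4, 29 and 19.5 CPM in KPB25L with trametinib. With erlotinib Fosl1 overlapped, at 45.5, 152 and 85.2 CPM in KPB25L-UV and 53.8, 37.3 and 31.9 CPM in KPB25L, where 152 CPM belonged to replicate 2. Dusp6, the phosphatase that ERK induces against itself, had 51.9, 79.7 and 70.1 CPM in KPB25L-UV with trametinib and 78.4, 73.7 and 82.3 CPM in KPB25L with trametinib. Under erlotinib Dusp6 had 99, 194 and 85.5 CPM in KPB25L-UV and 112, 110 and 72.8 CPM in KPB25L. Spry4, a feedback inhibitor of receptor signalling, had 14.4, 63.4 and 18.5 CPM in KPB25L-UV with erlotinib, against 9.82, 14 and 7.99 CPM in KPB25L with erlotinib, where 63.4 CPM belonged to replicate 2. Egfr, the target of erlotinib, overlapped in both arms (0.02 ± 0.20, and 0.15 without that tumour). All 13 tested genes of the list of EGFR family members and ligands were above 0, 6 of them in both arms. Their median was 0.45, and 0.29 without KPB25L-UV erlotinib replicate 2. Unadjusted p-values were under 0.05 for 2 of them, Hbegf (0.84 ± 0.29) and Errfi1 (0.58), and neither tool called any.

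The other genes reported whatever their values were not called by either tool. The log2 differences were 0.11 ± 0.26 for the epithelial adhesion molecule Epcam, -0.13 ± 0.14 for Trp53 and 0.21 ± 0.17 for Brca1. Among immune genes they were 0.44 for Cd274, which encodes PD-L1, -0.68 for Pdcd1, which encodes PD-1, -1.19 for Ctla4, -0.42 for the protease Gzmb, -0.19 for the MHC class I chain H2-K1, and 0.39 for the B cell receptor component Cd79a. They were -0.30 for Vim, an intermediate filament of mesenchymal cells, -1.13 for the basal keratin Krt14 and 0.60 for Cdkn1a, the cell cycle inhibitor p21. Without KPB25L-UV erlotinib replicate 2 they were 0.23 for Cdkn1a, -0.18 for Epcam, -0.04 for Trp53, -0.18 for Vim, -0.72 for Gzmb, -0.05 for H2-K1 and 0.80 for Cd79a, none called by edgeR. Among the remaining lists, the medians over both arms were 0.08 for the type I interferon response, -0.10 for the interferon gamma response, 0.22 for epithelial and tight junction genes, -0.11 for basal and squamous genes, -0.10 for p53 targets and 0.17 for cholesterol synthesis. Without KPB25L-UV erlotinib replicate 2 they were 0.13 for type I interferon, 0.09 for interferon gamma, 0.05 for epithelial and -0.32 for basal genes. In the basal list DESeq2 called 3 of 19 lower.

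KPB25L-UV erlotinib replicate 2 held levels outside the range of the other 11 inhibitor-treated tumours. Tns4, a focal adhesion protein, had 444 CPM there and 4.14 to 20.6 CPM in the other 11. Itga2, an integrin collagen receptor, had 235 CPM there, and Bmp7, a ligand of the bone morphogenetic protein family, had 767 CPM. The chromatin protein Hmga2 had 1030 CPM, and Ccnd1, the cyclin D1 gene, had 828 CPM. Low in the same tumour were Cp, ceruloplasmin (84.4 CPM), the surface peptidase Mme (11.3 CPM) and the growth factor receptor Fgfr2 (5.61 CPM). Of the 319 genes above the other inhibitor-treated tumours there, untreated KPB25L replicate 2 was the highest of the 6 untreated tumours for 213, and of the 260 genes below them it was the lowest for 189. It had 50.8 CPM for Tns4, 62.2 CPM for Itga2, 179 CPM for Bmp7, 501 CPM for Hmga2, 41.4 CPM for Mme and 13 CPM for Fgfr2. That tumour was of the other model and had received no inhibitor. These genes were chosen because they stood apart and were not tested.

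**Figure D5:**
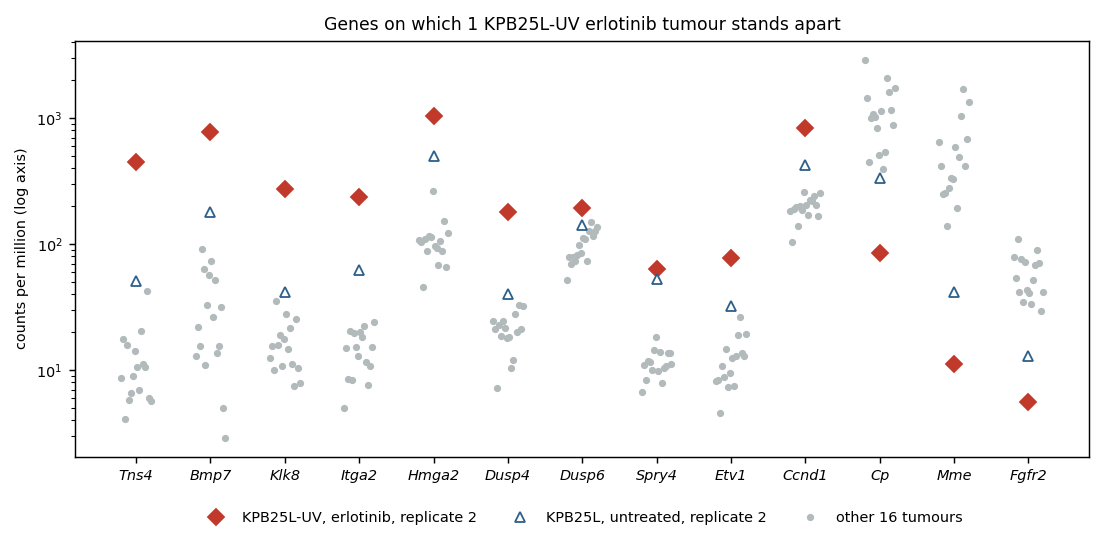
CPM on a log axis for 13 genes in KPB25L-UV erlotinib replicate 2, untreated KPB25L replicate 2 and the other 16 KPB25L-UV and KPB25L tumours. For Tns4 the first of these tumours has 444 CPM and the second 50.8 CPM.

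Within the trametinib arm alone, in the 4-group fit, edgeR called 11 genes (0.064% of 17177), 3 higher and 8 lower, and 2377 had an unadjusted p under 0.05 (13.8%); DESeq2 called 571 (3.32%). Besides Slc7a6, Clec10a and Cd209a, the prostaglandin carrier Slco2a1 fell to 28, 34.6 and 26.6 CPM in KPB25L-UV with trametinib, against 75.4, 63.9 and 77.2 CPM in KPB25L with trametinib (-1.28 ± 0.17, adjusted p = 0.0444). With erlotinib it had 101, 79.4 and 74.4 CPM in KPB25L-UV and 72.7, 81.4 and 55.7 CPM in KPB25L. Tspan13, a tetraspanin, fell by 0.80 on the log2 scale, and Frzb, a secreted Wnt antagonist, fell by 5.52, to 0.151, 0.216 and 0.174 CPM in KPB25L-UV against 4.74, 15.8 and 4.8 CPM in KPB25L. Spag17, a gene of motile cilia, rose to 2.53, 2.68 and 2.37 CPM in KPB25L-UV, against 0.266, 0.148 and 0.414 CPM in KPB25L. The other calls were Nrk, Chp2 and Pde8b, all lower, and Gm10335, annotated by GENCODE as a processed pseudogene at chr10:14523078-14523545 on the plus strand of GRCm38. Leaving out 1 tumour at a time moved the count to between 1 and 47. It was 1 to 4 without any 1 of the 6 trametinib tumours, KPB25L-UV erlotinib replicate 1 or KPB25L erlotinib replicates 1 and 2, and 47 without KPB25L-UV erlotinib replicate 2, which enters only through the shared spread and scaling.

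The trametinib tumours fitted alone, with no erlotinib tumour setting the spread, gave 85 calls in edgeR (0.518% of 16412), 20 higher and 65 lower. They held genes of vessels and of the cells around them, all lower in KPB25L-UV: Vwf (-1.77), Tek, the angiopoietin receptor (-1.41), Rgs5, a pericyte marker (-1.33), Acta2 (-1.72) and Eln, elastin (-1.66). They held 8 of the 20 resident-type macrophage genes, a list drawn up after these values were seen, so that share is partly built in. Of the 20 genes of the broader macrophage list, fixed beforehand, they held 1. Macrophage genes among the 85 included Clec10a (-3.06), Selenop (-1.42), the chemokine Ccl8 (-2.39) and Cd163 (-3.08). The immunoglobulin genes Ighg1 (-8.14), Igkc (-6.80) and Igha (-4.44) were lower too. Igkc varied widely, with 293, 220 and 16.4 CPM in KPB25L and 2.02, 1.94 and 0.906 CPM in KPB25L-UV. With erlotinib its groups overlapped, at 136, 3.88 and 0.664 CPM in KPB25L-UV and 18.1, 30.3 and 2.31 CPM in KPB25L. Akr1c14, a steroid dehydrogenase, fell by 4.32. On the higher side, genes of muscle and its development had the greatest differences after Gm10335: Myh3 (10.04), Myh8 (7.49), Myog (5.96), Actc1 (5.58), Mybph (5.34), Actn2 (4.43) and Myh2 (4.13). Slc16a3, the lactate exporter (1.65), and Trpm6, a magnesium channel (2.13), were also higher. The muscle level thus moved with the model in the same tumours as the vessel and macrophage genes, and its part in them was not tested. These genes were picked from the 85 after their values were seen.

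Within the erlotinib arm edgeR called no gene (0 of 17177, 0%, lowest adjusted p = 0.52), 1543 had an unadjusted p under 0.05 (8.98%) and DESeq2 called 63 (0.367%), 30 higher and 33 lower. Left without the 3 tumours highest in muscle, the 4-group fit called 499 genes in this arm, but KPB25L-UV was then represented by replicate 2 alone, the tumour that stood apart. The test of whether the model contrast differed between the arms called 1 gene, Gm10335 (0.00582%), with 1094 at an unadjusted p under 0.05 (6.37%) and 77 DESeq2 calls (0.448%). It called 2 without KPB25L-UV trametinib replicate 3, 3 without KPB25L trametinib replicate 3 and 4 without KPB25L-UV erlotinib replicate 1. Gm10335 had 22.5, 18.1 and 10.6 CPM in KPB25L-UV with trametinib and was listed at 0 in all 3 KPB25L tumours with trametinib, at least 109-fold apart against a floor of 3 counts per library. With erlotinib it had 12.5, 6.73 and 11.2 CPM in KPB25L-UV and 19.6, 12.6 and 22.4 CPM in KPB25L. Values of 0 also occurred in an untreated tumour of each model, and since a pseudogene shares its reads with the gene it was copied from, these estimates are uncertain.

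Interferon genes were higher with trametinib than with erlotinib. For trametinib minus erlotinib over both models edgeR called 5 genes, all higher with trametinib (0.0291%): Rsad2, Ifit3, Irf7 and Rtp4, which interferon induces, and Bsg, a surface glycoprotein that accompanies lactate carriers. DESeq2 called 587 (3.42%). Rsad2 had 13.5 to 23.5 CPM in KPB25L-UV and 9.53 to 19 CPM in KPB25L with trametinib, against 4.08 to 5.24 CPM in KPB25L-UV and 3.45 to 4.73 CPM in KPB25L with erlotinib (log2 difference 1.89 ± 0.19, adjusted p = 0.00909). In the type I interferon list 27 of 28 genes had an unadjusted p under 0.05 on the higher side (5.51% of all tested genes) and the median was 1.18. ERK output genes had a median of -0.53, with 5 of 22 at an unadjusted p under 0.05 on the lower side (7.1% of all tested genes). Mean log2 CPM over that list was 5.01, 5.21 and 4.96 in KPB25L-UV with trametinib, against 5.43, 6.81 and 5.53 with erlotinib, where 6.81 belonged to replicate 2. In KPB25L it was 5.21, 5.08 and 5.32 with trametinib and 5.28, 5.18 and 4.88 with erlotinib, with overlap. The part of replicate 2 in this drug-term median was not tested. Skeletal muscle genes had a median of -5.09, all 20 on that side, and without the 3 tumours highest in muscle edgeR called 0 genes for the drug term. It called 1 to 3 without KPB25L-UV trametinib replicate 1 or 3, KPB25L trametinib replicate 3, any 1 KPB25L-UV erlotinib tumour, or KPB25L erlotinib replicate 1 or 3.

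In untreated tumours, which the fits above did not use, edgeR called no gene between the models (0 of 15643, 0%, lowest adjusted p = 0.269), 949 had an unadjusted p under 0.05 (6.07%) and DESeq2 called 124 (0.793%), 75 higher and 49 lower. Of the 24 genes of smallest p under inhibitors, 22 had the same sign here and 0 had an unadjusted p under 0.05. Of the genes with an unadjusted p under 0.05 under inhibitors, 55.5% had the same sign in untreated tumours, as had 58.4% of those that DESeq2 called and 51.9% of all genes tested in both.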

How the data were processed

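The deposited table holds estimated counts that the authors made with Salmon, after STAR, SAMtools and Picard on mm10, per the submitters' processing notes, which give no version, setting or strandedness. It lists 55291 gene symbols, and 8.35% of values were not whole. The authors also deposited a scaled signal: each count over the 75th percentile of its library's values above 0, times 1000 (largest relative deviation 5.1e-15). Counts were rounded, filtered with filterByExpr and scaled by TMM in edgeR 4.0.16 (limma 3.58.1, DESeq2 1.42.0, R 4.3.3). A call means a Benjamini-Hochberg adjusted p below 0.05 over all tested genes. Log2 CPM used a prior count of 2, and limma a pseudocount of 1.

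The planned rule for naming genes took called genes without overlap, and since none was called the 24 smallest p-values were used instead. Another 17 genes were always named. Members of lists were picked after their values were seen, and they are not always those with the smallest p. The comparisons, 35 lists and 5 later lists were chosen with earlier results of these data known. List members overlap in part, and 3 symbols (Ahsp, Cyr61, Ctgf) were not matched. Promoters were matched by symbol to RefSeq windows on GRCm38.p6, and gene types to GENCODE on GRCm38. The main test was checked on simulated counts with the same spread for every gene, no treatment effect and no outlying tumour. That check covers recovery of set differences in that setting and not the power of the test in these tumours. Replicate numbers follow sample order and pair nothing. At these depths (19.1 to 55.65 M counts) counting error limits mainly genes near 1 CPM.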

Additional observations from a re-analysis of the deposited data

Results flagged for a closer look

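Single tumours lay far from the others of their model in 5 of 82 sets of 6 values examined; chance flags about 1 in 20 sets. KPB25L-UV erlotinib replicate 2 held the extreme value in 3 of them: Dusp6 had 194 CPM there, with the nearest KPB25L-UV tumour at 99 CPM, Spry4 had 63.4 CPM with the nearest at 18.5 CPM, and Cdkn1a had 105 CPM with the nearest at 42.2 CPM. Krt14 had 167 CPM in KPB25L-UV trametinib replicate 2, with the nearest at 65.5 CPM. Mns1, a gene of the 24 smallest p-values, had 15.7 CPM in KPB25L-UV erlotinib replicate 3, with the nearest at 10.9 CPM; every KPB25L-UV value of it still lay above every KPB25L value.

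The model contrast of Gm10335 differed between the arms by 12.9 on the log2 scale in edgeR's interaction test (adjusted p = 0.0036). That fitted size depends on the prior count, because 3 tumours were listed at 0, and it is no bound.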

How the results depend on the processing

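Which genes pass depends on the tool and on single tumours. For the model contrast over both arms, edgeR called 0 genes; DESeq2 called 740, limma called 60 on the authors' scaled values, trametinib tumours fitted alone 85, and the fit without the 3 tumours highest in muscle 34 (5 higher, 29 lower). Leaving out 1 tumour at a time gave 0 to 5, and the 5 came without KPB25L-UV erlotinib replicate 2: Calr (0.68), Cyp26b1 (1.27), Fads2 (0.71), Nfil3 (0.84) and Trpm6 (2.10). Other size factors, low-count filters, a robust spread, no treatment term, the 18-tumour fit and libraries thinned to 19.1 M counts each gave 0.

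Within trametinib the 11 calls became 30 with no filter, 571 by DESeq2, 29 by limma, 6 after thinning and 117 without the muscle-high tumours, and 1 to 47 with 1 tumour left out. Within erlotinib the 0 calls became 63 by DESeq2 and 499 without the muscle-high tumours, and stayed 0 to 0 with 1 tumour left out. The arm difference, 1 call, became 77 by DESeq2, 346 without the muscle-high tumours and 1 to 4 with 1 left out. The drug term, 5 calls, became 10 with no filter, 10 with the stricter filter, 587 by DESeq2, 0 without the muscle-high tumours and 1 to 5 with 1 left out. In untreated tumours DESeq2 called 124, against 0. The cause of these shifts was not tested, except that leaving out tumours leaves fewer samples. Without the muscle-high tumours the KPB25L-UV erlotinib arm is replicate 2 alone, assumed to vary like the other groups, so the 499 and 346 describe that tumour. Thinning, the robust spread and the fit without muscle-high tumours were chosen after seeing the data.

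Of the named genes' values under these settings, 903 were labelled the same, 50 passed the threshold newly and 29 were labelled moved. These labels do not mean that no sign changed. Without KPB25L-UV erlotinib replicate 2 the log2 difference went from 0.11 to -0.18 for Epcam, from -0.04 to 0.18 for Cd8a and from 0.07 to -0.15 for Dusp6. No paired analysis was possible because the labels give these tumours no replicate numbers that pair them across groups. Depth differed by model in every inhibitor-treated tumour, so depth and model cannot be told apart beyond what thinning shows.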
